A study of Mus musculus with 16 samples.

Results

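The enzymes that build and break down the lipids of myelin were followed as a group of 10 genes, chosen by symbol: Sptlc2, Cers2, Fa2h, Elovl1, Elovl7, Ugt8a, Gal3st1, Aspa, Galc and Arsa. All 10 were among the 19449 genes listed in the deposited count table, and all 10 were among the 16269 genes tested. The measurements came from total RNA of the hippocampus of mice 3 months old, in 16 libraries. Tspo encodes the translocator protein of the outer mitochondrial membrane. Of the 16 libraries, 4 came from Tspo knockout (KO) mice injected with lipopolysaccharide (LPS), an inflammatory molecule of the outer membrane of bacteria, and 4 from KO mice injected with the vehicle PBS. The other 8 came from wild-type (WT) mice, 4 injected with LPS and 4 with PBS. The labels give no strain, no dose and no time after injection, and say neither how the Tspo allele was made nor in which cells it is lost. They also leave it unsaid if each library is an animal of its own, so each p-value measures the spread between these libraries, which may be technical.

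Myelin is the membrane that oligodendrocytes wrap around axons, and it is unusually rich in galactosylceramide and in its sulfated form, sulfatide. Their ceramide part joins a sphingoid base to a very long fatty acid that is often hydroxylated; a galactose is then attached in the endoplasmic reticulum and a sulfate in the Golgi. Lysosomal hydrolases take the same lipids apart, and their inherited loss causes leukodystrophies. Sptlc2 encodes a subunit of serine palmitoyltransferase, the first step of sphingolipid synthesis. Elovl1 and Elovl7 encode fatty acid elongases, Cers2 the synthase that attaches very long acyl chains, and Fa2h the fatty acid 2-hydroxylase. Ugt8a encodes the galactosyltransferase that makes galactosylceramide, and Gal3st1 the sulfotransferase that makes sulfatide from it. Aspa encodes aspartoacylase, which releases acetate from N-acetylaspartate in oligodendrocytes. Galc encodes the lysosomal galactosidase that degrades galactosylceramide, and Arsa arylsulfatase A, which removes the sulfate from sulfatide, so these last genes serve breakdown and not synthesis.

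The start regions of 3 of the genes are shown because their transcripts behaved differently in the results below: Ugt8a had the largest difference of the group, Aspa a middle one, and Galc none that passed a test. The sequences are RefSeq promoter windows on GRCm38.p6, from 250 bases before to 50 bases after the annotated start, written along the strand of the gene. Capitals mark the GC box word GGGCGG in Ugt8a and Galc. In Aspa they mark the word of the TATA box, which is TATAAA. Words are marked on either strand, with overlapping words run together. Ugt8a lies at chr3:125938603-125938902, Aspa at chr11:73324588-73324887 and Galc at chr12:98259410-98259709, all on the minus strand.
Ugt8a: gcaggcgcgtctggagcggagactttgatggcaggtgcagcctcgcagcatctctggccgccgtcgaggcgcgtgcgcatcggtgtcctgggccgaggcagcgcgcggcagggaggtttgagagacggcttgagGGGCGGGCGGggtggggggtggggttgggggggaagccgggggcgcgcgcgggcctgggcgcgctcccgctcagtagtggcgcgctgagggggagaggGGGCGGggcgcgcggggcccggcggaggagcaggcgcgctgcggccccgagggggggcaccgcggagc
Aspa: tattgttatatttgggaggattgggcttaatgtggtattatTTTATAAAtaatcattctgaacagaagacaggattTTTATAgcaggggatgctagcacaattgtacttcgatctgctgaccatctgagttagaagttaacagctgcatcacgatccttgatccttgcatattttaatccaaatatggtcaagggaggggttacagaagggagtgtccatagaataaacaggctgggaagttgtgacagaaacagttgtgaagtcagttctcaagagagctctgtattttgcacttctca
Galc: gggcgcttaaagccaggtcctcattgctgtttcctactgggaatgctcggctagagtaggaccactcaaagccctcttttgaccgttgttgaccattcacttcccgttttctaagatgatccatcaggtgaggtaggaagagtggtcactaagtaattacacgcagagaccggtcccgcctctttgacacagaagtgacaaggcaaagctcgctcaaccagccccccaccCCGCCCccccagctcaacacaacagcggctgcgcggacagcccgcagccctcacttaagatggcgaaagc
The Ugt8a window was 78.3% G or C, the Galc window 55.7% and the Aspa window 39%, where the median of the 32851 windows in the reference table was 52.7%. Ugt8a held the GC box word at positions -116 and -112, which overlap, and at -18 from the start. Galc held it once, at -20. Aspa held no GC box and 3 TATAAA words, at -209, -207 and -174. Of the 9 genes with a window in the table, 6 held the GC box word (Cers2, Elovl1, Elovl7, Galc, Sptlc2 and Ugt8a). Some genes have several windows: counted by window, 7 of 13 held the word, against 35.7% of all windows. Only Aspa held TATAAA, in 1 of the 13 windows, against 13.6% of all windows. None of the 9 held AACAAAG, a word bound by SOX factors, nor its variant AACAATG (either word was in 9.36% of all windows). None held CTGGCAC, a word of the oligodendrocyte factor MYRF, nor its variant CTGGTAC (either was in 7.1% of all windows). Among the genes whose transcripts fell after LPS, Ugt8a, Elovl7 and Sptlc2 held a GC box, Aspa and Gal3st1 did not, and Fa2h had no window. Among those that did not pass, Cers2, Elovl1 and Galc held it and Arsa did not. Both sets were thus mixed in this respect, and a word match is a description of the letters only.

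Total counts per library ran from 30198619 to 50009041. The library labelled KO PBS replicate 1 held 2.33 CPM (counts scaled to the TMM-adjusted library total) of Tspo, inside the WT PBS range, while the other 3 KO PBS libraries held 0.152 to 0.47 and the KO LPS libraries 0.209 to 0.486 CPM. WT LPS replicate 1 stood apart in its response: Lcn2, an acute-phase gene, was at 0.641 CPM there and at 209 to 238 CPM in the other 3 WT LPS libraries. Together with WT PBS replicate 1 it also had the lowest choroid plexus transcripts, with list scores (mean log2 CPM relative to the WT PBS mean) of -4.13 and -4.32, where the other 14 libraries lay between -0.14 and 2.64. Neuronal transcripts such as Snap25 and Slc17a7 were abundant in each library. The titles carry codes of unstated meaning that nearly separate WT LPS from WT PBS and fully separate the groups of the other comparisons, so code and group cannot be told apart there. Within the only code shared by WT LPS and WT PBS, the single LPS library (replicate 1) minus the single PBS library (replicate 4) differed by -1.01 in Ugt8a, -1.10 in Fa2h, -1.01 in Aspa, -1.56 in Elovl7, -0.50 in Gal3st1, -0.04 in Sptlc2 and -0.68 in Cers2 on the log2 CPM scale, with no test.

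Levels between genes were compared as CPM per kilobase of the longest annotated transcript. In WT PBS libraries Cers2 was highest at 31.8, followed by Fa2h at 25.1 and Ugt8a at 21. Arsa at 10.7, Elovl1 at 8.53 and Galc at 7.7 formed a middle group. Sptlc2 at 6.16, Gal3st1 at 5.96, Elovl7 at 5.91 and Aspa at 4.9 were lowest, and the means of the first 3 of these differed by less than their spread over libraries. In WT LPS libraries Cers2 stayed first at 29.5, and Fa2h at 12.3 came before Arsa at 10.3, Elovl1 at 9.05 and Galc at 7.91. Ugt8a was then at 6.23 CPM per kilobase, below both breakdown enzymes.

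In wild-type hippocampus, transcripts of 6 of the 10 enzymes were lower after LPS than after PBS and none was higher. They covered the galactose and sulfate transfer steps (Ugt8a, Gal3st1), the hydroxylation of the acyl chain (Fa2h), an elongase (Elovl7), the entry into sphingolipid synthesis (Sptlc2) and acetate release (Aspa). Both breakdown enzymes, Galc and Arsa, and the ceramide synthase Cers2 and elongase Elovl1 did not pass. Across all genes tested 3.85% were lower at an adjusted p under 0.05 (edgeR's quasi-likelihood test, Benjamini-Hochberg over 16269 genes), against 6 of the 10 enzymes. The 6 calls ended when only these 8 libraries were fitted, where no gene of all tested passed (Ugt8a -1.75, edgeR adjusted p = 0.0815), and when a score of oligodendrocyte transcripts was added as a covariate (Ugt8a -0.84, edgeR adjusted p = 0.387). The median log2 fold change was -0.54 over the 10 enzymes and 0.00 over all genes tested. In bulk tissue fewer cells of a type and less RNA per cell cannot be told apart, which holds for each value below.

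Ugt8a stood at 39.0, 23.4, 16.7 and 14.6 CPM in the 4 WT LPS libraries, against 62.6, 88.2, 86.6 and 78.6 CPM in the 4 WT PBS libraries. Each LPS library lay below each PBS library, and the highest of the LPS libraries was replicate 1, the one with little Lcn2. The mean was 23.4 ± 11 CPM in WT LPS and 79.0 ± 11.7 CPM in WT PBS (SD, n = 4 each), 3.37-fold lower after LPS. The log2 fold change was -1.75 ± 0.23 (SE; 95% interval -2.25 to -1.26; edgeR adjusted p = 0.00251). By p this was rank 9 among all genes tested, and by size rank 15 among the 576 genes that were lower and had a mean log2 CPM of at least 1. Without WT LPS replicate 1 the log2 fold change of Ugt8a was -2.11.

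Gal3st1, the next enzyme after Ugt8a, had 9.01, 6.72, 6.26 and 5.60 CPM in WT LPS libraries, against 9.31, 10.5, 12.2 and 12.8 CPM in WT PBS libraries. The groups did not overlap, although replicate 1 of each lay close to the other. Its log2 fold change was -0.70 ± 0.14 (edgeR adjusted p = 0.00852).

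Fa2h, whose product gives myelin galactolipids their 2-hydroxylated chains, had 35.3, 41.1, 27.1 and 18.9 CPM in WT LPS libraries, against 45.5, 63.4, 65.4 and 75.4 CPM in WT PBS libraries. The groups did not overlap, and replicate 4 was the lowest of the LPS libraries and the highest of the PBS libraries. This gave a log2 fold change of -1.03 ± 0.19, or 2.04-fold lower (edgeR adjusted p = 0.00629).

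Sptlc2 had 35.0, 29.1, 31.3 and 30.8 CPM in WT LPS libraries, against 37.1, 45.8, 46.3 and 36.0 CPM in WT PBS libraries. The groups did not overlap but nearly met, and PBS replicates 2 and 3 were well above the other 2. These libraries were the most alike of all pairs within a group, yet each counts as 1 of n = 4 throughout. Their median squared difference was 1.84 times that of sampling noise, against 4.39 times in the next closest pair. With the pair summed, 5 enzymes were lower in WT LPS and none passed the interaction described below. Sptlc2 had a log2 fold change of -0.39 ± 0.08 (edgeR adjusted p = 0.00998). Ugt8a, Gal3st1, Fa2h and Sptlc2 were thus 4 of the 10 enzymes with all LPS libraries below all PBS libraries, which held for 4.41% of all genes tested.

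Elovl7, an elongase of saturated and monounsaturated long chains, had 11.2, 15.9, 8.75 and 11.6 CPM in WT LPS libraries, against 15.3, 23, 23.5 and 33.0 CPM in WT PBS libraries. The highest LPS library reached just above the lowest PBS library, replicate 1. The log2 fold change was -1 ± 0.21 (edgeR adjusted p = 0.0101). Aspa had 11.2, 15.9, 9.87 and 9.78 CPM in WT LPS libraries, against 13, 24.6, 21.6 and 22.5 CPM in WT PBS libraries. Here too a single PBS library, replicate 1, lay inside the LPS range. The log2 fold change of Aspa was -0.80 ± 0.19 (edgeR adjusted p = 0.0203), and it did not pass without WT PBS replicate 2 or 3 or without WT LPS replicate 3 or 4 (log2 fold changes -0.77 to -0.69).

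The enzymes that did not pass differed in spread. Galc had 33.1, 36.4, 36.7 and 34.3 CPM in WT LPS libraries, against 34.7, 33.2, 33.3 and 35.5 CPM in WT PBS libraries. Its groups overlapped, and the 95% interval of its log2 fold change, 0.04, ran from -0.06 to 0.14. Arsa averaged 36.1 ± 3.5 CPM in WT LPS and 37.3 ± 2.65 CPM in WT PBS (log2 fold change -0.05, interval -0.20 to 0.10). Up to 16.9% of the 31-base words of the Arsa transcripts are shared with an antisense gene at its locus, and the strand setting of the counting is not stated. Cers2 averaged 65.3 ± 16.2 CPM in WT LPS, where replicate 2 was the highest of the 16 libraries at 87.6, and 70.5 ± 9.53 CPM in WT PBS (log2 fold change -0.11, interval -0.40 to 0.18). Elovl1 averaged 16.4 ± 2.34 CPM in WT LPS and 15.4 ± 0.889 CPM in WT PBS (log2 fold change 0.09, interval -0.12 to 0.30). The span of Cers2 overlaps Setdb1, and that of Elovl1 overlaps Cdc20, on the opposite strand, so reads from the overlaps cannot be assigned without strand. The shared part was small, at 3.47% of the 31-base words of Cers2 and 0.816% of those of Elovl1. For Cers2, 86 of the 131 shared words were shared with the antisense gene 6330562C20Rik.

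**Figure D1:**
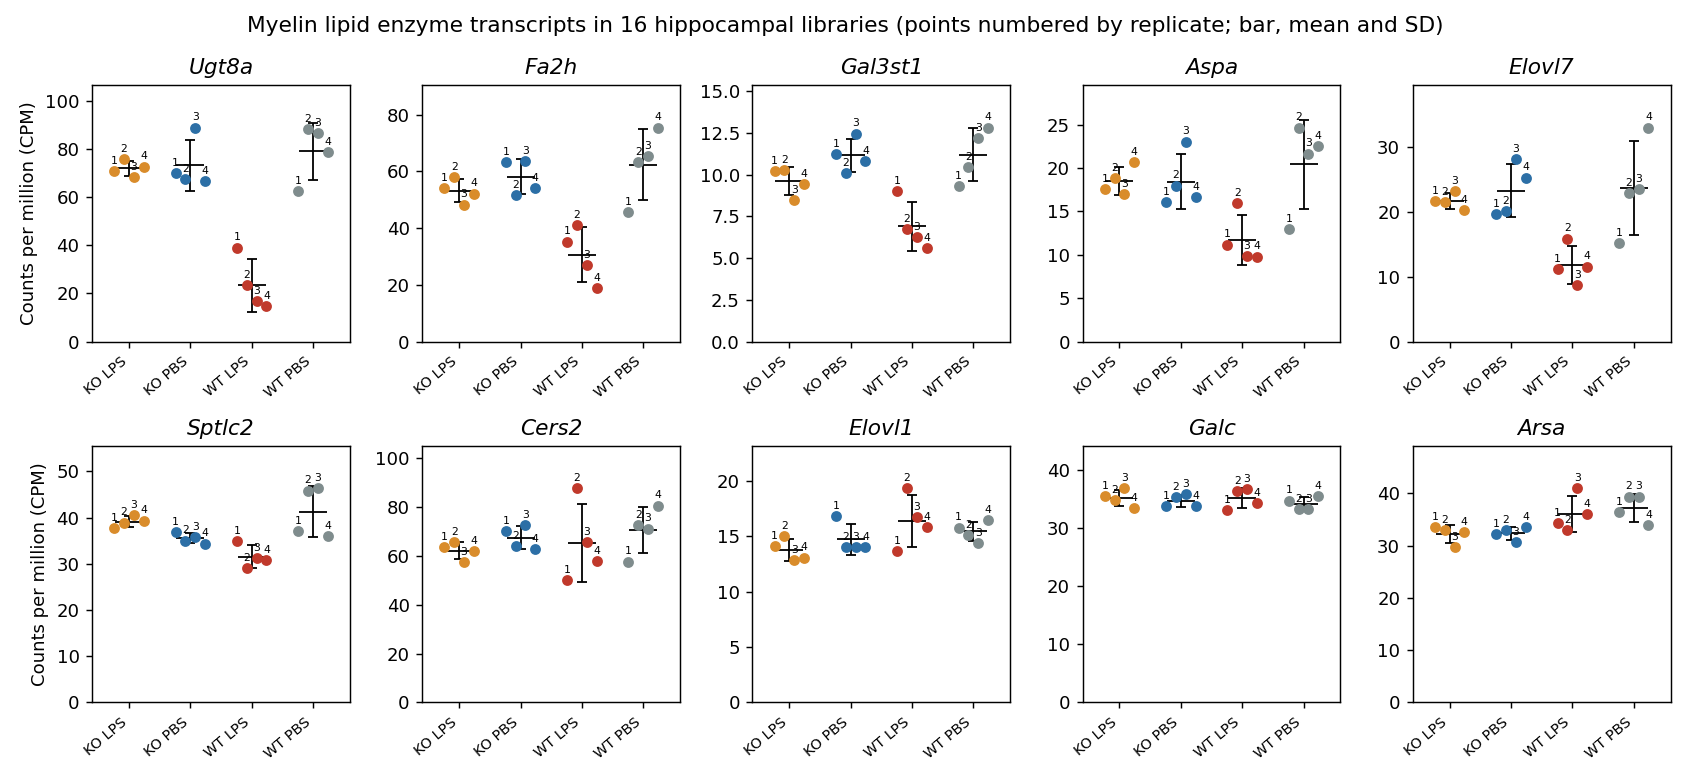
CPM (linear axis from 0) of each enzyme in the 16 libraries, with points numbered by replicate and bars for the mean and SD of 4 libraries. The 4 WT LPS libraries of Ugt8a lay at 14.6 to 39.0 CPM, below all of the other 12 libraries at 62.6 to 88.8 CPM, while Galc lay between 33.1 and 36.8 CPM throughout.

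The enzyme that makes galactosylceramide was set against the one that degrades it by log2 CPM of Ugt8a minus that of Galc in each library. It was 0.24, -0.63, -1.13 and -1.23 in WT LPS, against 0.85, 1.41, 1.38 and 1.15 in WT PBS. In KO LPS it was 1, 1.12, 0.90 and 1.12, against 1.06, 0.93, 1.31 and 0.98 in KO PBS. Only in WT LPS replicates 2, 3 and 4 of the 16 libraries was the difference below 0, that is, Galc had the higher CPM. This difference carries no test of its own.

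In the knockout hippocampus none of the 10 enzymes passed between LPS and PBS, and none of all genes tested did (0%; 1120 genes had an unadjusted p under 0.05, DESeq2 called 3 genes and limma-voom none). Lcn2 did not rise there, at 0 to 0.119 CPM in KO LPS libraries and 0.0237 to 0.302 CPM in KO PBS libraries. The score of 7 inflammation genes, Lcn2 among them, was -0.48 to -0.24 in KO LPS and -0.66 to -0.13 in KO PBS. In WT LPS it reached 5.18. Whether the KO LPS mice responded to the injection was not tested beyond these values. Ugt8a had 71.0, 75.7, 68.5 and 72.7 CPM in KO LPS libraries, against 70.1, 67.5, 88.8 and 66.6 CPM in KO PBS libraries. The LPS libraries lay inside the PBS range, with replicate 3 of KO PBS the highest of the 16 libraries. The log2 fold change of Ugt8a was -0.03 (95% interval -0.50 to 0.45), an interval that does not reach the wild-type value of -1.75. Sptlc2 had 37.7, 38.9, 40.5 and 39.4 CPM in KO LPS libraries, against 36.8, 35.0, 35.9 and 34.4 CPM in KO PBS libraries. It was the only enzyme of the 10 whose KO groups did not overlap, with LPS higher, which held for 3.04% of all genes tested, and it did not pass (log2 fold change 0.14, interval -0.03 to 0.31; edgeR adjusted p = 0.71). The other log2 fold changes in the knockout lay between -0.22 (Gal3st1) and 0.02 (Galc), and the median of the 10 was -0.06. Without the library labelled KO PBS replicate 1 none passed either, and the value of Ugt8a was -0.05.

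Between KO LPS and WT LPS libraries, 6 of the 10 enzymes were higher in the knockout, where 4.61% of all genes tested were, and none was lower, where 7.28% of all genes were. The comparison shares its WT LPS libraries with that of LPS and PBS in wild type. Its KO LPS libraries held at most 0.119 CPM of Lcn2, against 209 to 238 CPM in WT LPS replicates 2, 3 and 4. Ugt8a at 68.5 to 75.7 CPM in KO LPS, against 14.6 to 39.0 CPM in WT LPS, had a log2 fold change of 1.62 ± 0.23 (95% interval 1.13 to 2.11; edgeR adjusted p = 0.00308). Elovl7 at 20.3 to 23.2 CPM in KO LPS, against 8.75 to 15.9 CPM in WT LPS, had one of 0.87 ± 0.21 (edgeR adjusted p = 0.0164), and Fa2h at 48.3 to 58.0 CPM, against 18.9 to 41.1 CPM, one of 0.80 ± 0.19 (edgeR adjusted p = 0.0174). Aspa differed by 0.66 ± 0.19 (edgeR adjusted p = 0.0381), Gal3st1 by 0.48 ± 0.14 (0.0374) and Sptlc2 by 0.31 ± 0.08 (0.0229). Of these, 5 had groups that did not overlap, all but Gal3st1, for which KO LPS replicate 3 at 8.47 CPM lay below WT LPS replicate 1 at 9.01 CPM; all KO LPS libraries lay above all WT LPS libraries in 7.35% of all genes tested. Elovl1 (-0.25 ± 0.10), Arsa (-0.16 ± 0.07), Cers2 (-0.07 ± 0.14) and Galc (0.00 ± 0.05) did not pass; with limma-voom and sample quality weights Arsa was lower in KO LPS (-0.19, adjusted p = 0.0394) beside the 6 higher enzymes. The count of higher enzymes was 3 when only the 8 libraries compared were fitted and 0 with the oligodendrocyte score as covariate. It also depended on single libraries, at 1, Ugt8a alone, without WT LPS replicate 3, and 3 without WT LPS replicate 4 or without KO LPS replicate 4. Without WT LPS replicate 1 the same direction was called for 6 enzymes, and Elovl1 was in addition lower in KO LPS (log2 fold change -0.33, edgeR adjusted p = 0.0178).

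After PBS none of the 10 enzymes passed between KO and WT, where 0.0369% of all genes tested did. Arsa had 32.2, 32.9, 30.7 and 33.6 CPM in KO PBS libraries, against 36.4, 39.4, 39.4 and 33.9 CPM in WT PBS libraries. The groups did not overlap, which held in this direction for 1.82% of all genes tested, but the log2 fold change of -0.20 ± 0.07 did not pass (unadjusted p = 0.012, edgeR adjusted p = 0.918). Arsa lies 5.9 Mb from Tspo on chromosome 15. Sptlc2 differed by -0.22 ± 0.08 (unadjusted p = 0.0164, edgeR adjusted p = 0.918). With limma-voom and sample quality weights both passed (adjusted p = 0.0391 for Arsa and 0.0336 for Sptlc2). Ugt8a averaged 73.3 ± 10.5 CPM in KO PBS and 79.0 ± 11.7 CPM in WT PBS (SD, n = 4 each; log2 fold change -0.11, interval -0.58 to 0.37).

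Whether the LPS difference itself differed between genotypes was tested as an interaction. Lcn2 did not rise in the KO LPS libraries, and the bearing of this on the interaction was not tested. Ugt8a passed, with an LPS effect higher in KO than in WT by 1.73 ± 0.32 on the log2 scale (95% interval 1.05 to 2.41; edgeR adjusted p = 0.0432), and so did Sptlc2, by 0.53 ± 0.11 (edgeR adjusted p = 0.04997, at the threshold). In the same direction 0.553% of all genes tested passed. Fa2h (0.90 ± 0.27, adjusted p = 0.0848), Elovl7 (0.89 ± 0.29, 0.102), Aspa (0.81 ± 0.27, 0.111) and Gal3st1 (0.48 ± 0.20, 0.17) did not pass, so a difference between genotypes was not established for them. Both calls were close to the threshold: Ugt8a and Sptlc2 each passed in 3 of the 16 fits that left out 1 library, and without the library labelled KO PBS replicate 1 neither did (Ugt8a 1.71, edgeR adjusted p = 0.08; Sptlc2 0.55, edgeR adjusted p = 0.0833). Without WT LPS replicate 1 the count was 4 and the value of Ugt8a 2.09.

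**Figure D2:**
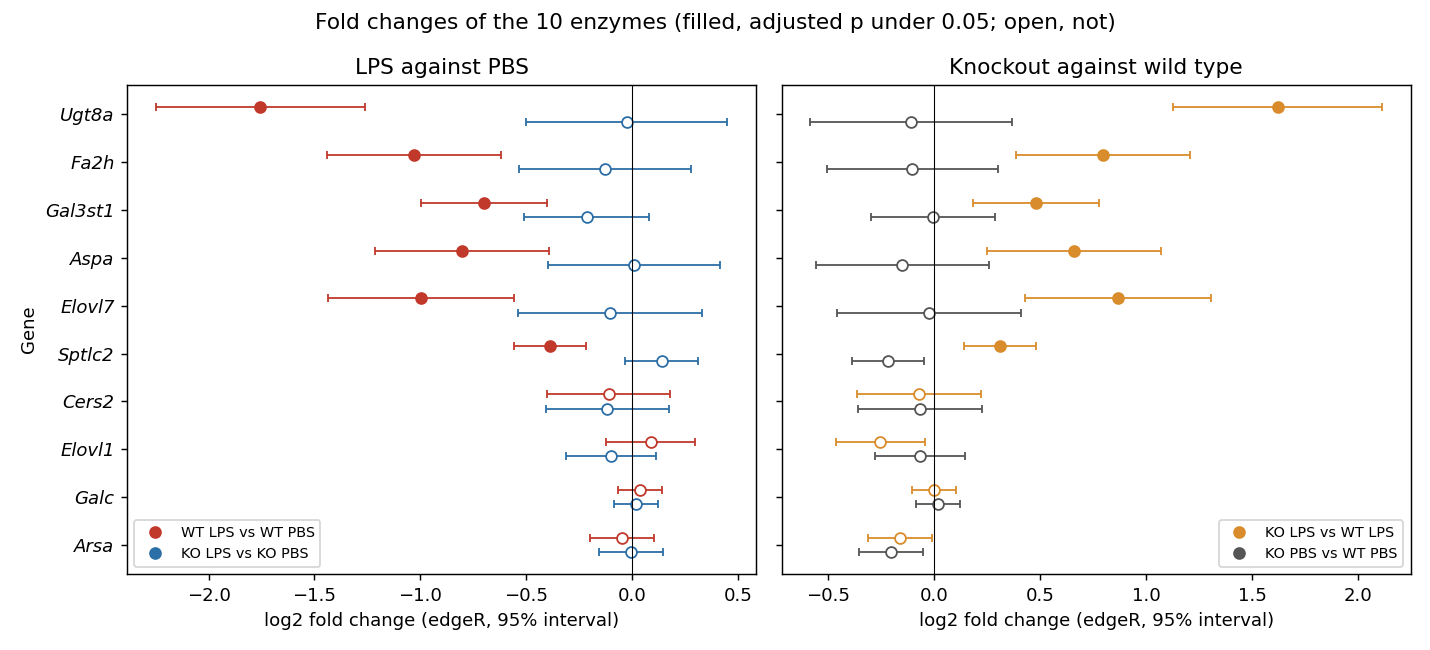
Log2 fold changes with 95% intervals from edgeR for the 10 enzymes, LPS against PBS in each genotype (left) and KO against WT after each injection (right), with filled points at an adjusted p under 0.05. The filled points are the 6 enzymes from Ugt8a to Sptlc2 in WT LPS against WT PBS and in KO LPS against WT LPS, and none is filled in KO LPS against KO PBS or KO PBS against WT PBS.

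Many other oligodendrocyte transcripts moved with the enzymes, but not all alike. Of 14 structural transcripts of oligodendrocytes and myelin, 10 were lower in WT LPS than in WT PBS and none was higher, with a median log2 fold change of -0.90. They included the myelin protein Mog (-1.28 ± 0.18, edgeR adjusted p = 0.00251) and the gap junction protein Gjb1 (-1.42 ± 0.22, 0.00306). In WT LPS replicate 2, however, Mbp (3990 CPM), Mobp (1757), Cldn11 (220) and Tspan2 (169) lay above every WT PBS library. The WT PBS maxima were 3979, 1364, 205 and 167 CPM. In WT LPS replicates 1, 3 and 4 these genes lay below every WT PBS library. The list score was -0.27 to -0.07 in KO LPS and -0.23 to 0.02 in KO PBS, and -1.60 to -0.48 in WT LPS, against -0.35 to 0.16 in WT PBS. No marker of the list was at 0 in any library. The fall did not follow Lcn2 across the WT LPS libraries. The score was -0.91 in replicate 1, with little Lcn2, and -0.48, -1.21 and -1.60 in replicates 2, 3 and 4, with high Lcn2. Between KO LPS and WT LPS, 10 of the 14 were higher in KO LPS (median 0.71), and none passed between KO LPS and KO PBS. Of 5 oligodendrocyte transcription factor genes, Sox10 and Olig1 were lower in WT LPS (-0.44 and -0.59), and of 5 precursor genes, Gpr17 and Enpp6 were (-0.54 and -1.01). The other 3 precursor genes did not pass: Pdgfra, the growth factor receptor that marks precursors, was at 48.5 to 73.6 CPM in WT LPS, against 48.9 to 58.2 CPM in WT PBS (log2 fold change 0.21 ± 0.11, edgeR adjusted p = 0.242), Cspg4 differed by -0.18 and Bmp4 by -0.17.

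Transcripts of regions beside the hippocampus (thalamus, striatum, cerebellum) differed between groups and also between libraries of the same group. Their list score was -1.64 to -0.68 in WT LPS, and -0.68, 0.73, 0.71 and -0.76 in WT PBS replicates 1 to 4. It was -0.29 to 0.56 in KO LPS, and 0.48, 0.92, -0.06 and -1.56 in KO PBS replicates 1 to 4. Prkcd, a gene of that list, was at 294 and 299 CPM in WT PBS replicates 2 and 3. In replicates 1 and 4 it was at 35.0 and 36.8 CPM. WT PBS replicates 2 and 3 were also those with the higher Sptlc2, and a link was not tested. Of the 10 genes of the list tested, 2 were lower in WT LPS than in WT PBS and 1 was higher in KO LPS than in WT LPS. Gabra6, of cerebellar granule cells, was at 0 in 8 libraries, and no other gene of that list was at 0 in any. In KO PBS replicate 2 Gabra6 was at 114 CPM and Cbln3 at 302 CPM, where no other library exceeded 0.232 and 1.36 CPM. With this score as a covariate 4 enzymes stayed lower in WT LPS (Ugt8a at -1.82, edgeR adjusted p = 0.0127). With the same covariate the enzymes higher in KO LPS than in WT LPS numbered 1 (Ugt8a at 1.69, edgeR adjusted p = 0.0223), and none passed the interaction (Ugt8a at 1.81, edgeR adjusted p = 0.115).

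Markers of other cells moved in WT LPS as well. All 3 leukocyte genes that could be tested of 5, the neutrophil genes S100a8, S100a9 and Ngp, were higher in WT LPS than in WT PBS, with a list score of 0.63 to 4.72 in WT LPS, against -0.34 to 0.60 in WT PBS. Each of the 5 was at 0 in at least 1 library. Of 6 astrocyte genes, Gfap (1.68 ± 0.34, edgeR adjusted p = 0.00919) and Aldh1l1 (0.55 ± 0.12, 0.0154) were higher and none was lower, with scores of -0.09 to 0.39 in WT LPS, against -0.11 to 0.09 in WT PBS. Gfap, the intermediate filament of reactive astrocytes, was at 225 CPM in WT LPS replicate 1 and at 989 to 1234 CPM in the other 3 WT LPS libraries. Of 6 microglial genes, the complement gene C1qa was higher (1.38 ± 0.26, edgeR adjusted p = 0.00658) and P2ry12, a receptor of resting microglia, was lower (-1.35 ± 0.33, 0.0217), with scores of -0.03 to 0.41 in WT LPS, against -0.08 to 0.20 in WT PBS. None of 5 red cell genes passed, although each had an unadjusted p under 0.05, with scores of -4.63 to -1.69 in WT LPS, against -2.30 to 1.44 in WT PBS. No gene of these 4 lists passed between KO LPS and KO PBS. Between KO LPS and WT LPS, S100a8, S100a9, Gfap, Aldh1l1, C1qa and the microglial gene Aif1 were lower in KO LPS, and P2ry12 and the astrocyte gap junction gene Gja1 were higher. Neuronal scores lay between -0.09 and 0.19 over the 16 libraries. None of 6 neuronal genes passed between WT LPS and WT PBS, and 2 were higher in KO LPS than in WT LPS (mean scores 0.10 and -0.04). Of 4 endothelial genes, 1 was lower in WT LPS than in WT PBS and 2 were lower in KO LPS than in WT LPS. Endothelial scores were -0.24 to 0.24 in WT LPS, -0.06 to 0.19 in WT PBS, -0.40 to -0.16 in KO LPS and -0.38 to -0.15 in KO PBS. Beyond these values and the fits with a list score as covariate, the part of other cells or regions in the differences of the enzymes was not tested.

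Each enzyme was then set against the mean of the 14 structural transcripts in the same library, as a difference in log2 CPM from the WT PBS mean. The 14 did not move alike in WT LPS replicate 2, as given above. Fa2h stayed with the list: 0.11, -0.09, 0.02 and -0.10 in WT LPS, against -0.08 to 0.13 in WT PBS. Ugt8a was lower relative to the list in 3 of the 4 WT LPS libraries, with -0.09, -1.25, -1.02 and -0.81, against -0.16 to 0.09 in WT PBS. In KO LPS libraries Ugt8a was at 0.02 to 0.08, against -0.16 to 0.16 in KO PBS. In WT LPS replicate 1 Ugt8a was thus as low as the other oligodendrocyte transcripts of its library and no lower, while replicates 2, 3 and 4, the libraries with high Lcn2, were below theirs. Aspa, at 0.08 to 0.58, and Elovl7, at -0.17 to 0.62, were near the list or above it in WT LPS, and Gal3st1 ranged from -0.24 to 0.62. The remaining enzymes were above it in most WT LPS libraries, with Galc at 0.57 to 1.61, Elovl1 at 0.74 to 1.64, Cers2 at 0.43 to 1.32, Arsa at 0.31 to 1.56 and Sptlc2 at -0.01 to 1.19. Galc, Elovl1, Cers2 and Arsa did not pass between WT LPS and WT PBS (log2 fold changes -0.11 to 0.09). Their positive values therefore mostly restate the fall of the list that was subtracted. These relative levels carry no test. With the list score as a covariate no enzyme passed in any comparison, and no gene of all those tested did between WT LPS and WT PBS or between KO LPS and WT LPS; Ugt8a was then at -0.84 (edgeR adjusted p = 0.387) and Fa2h at 0.07 (0.806) between WT LPS and WT PBS.

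**Figure D3:**
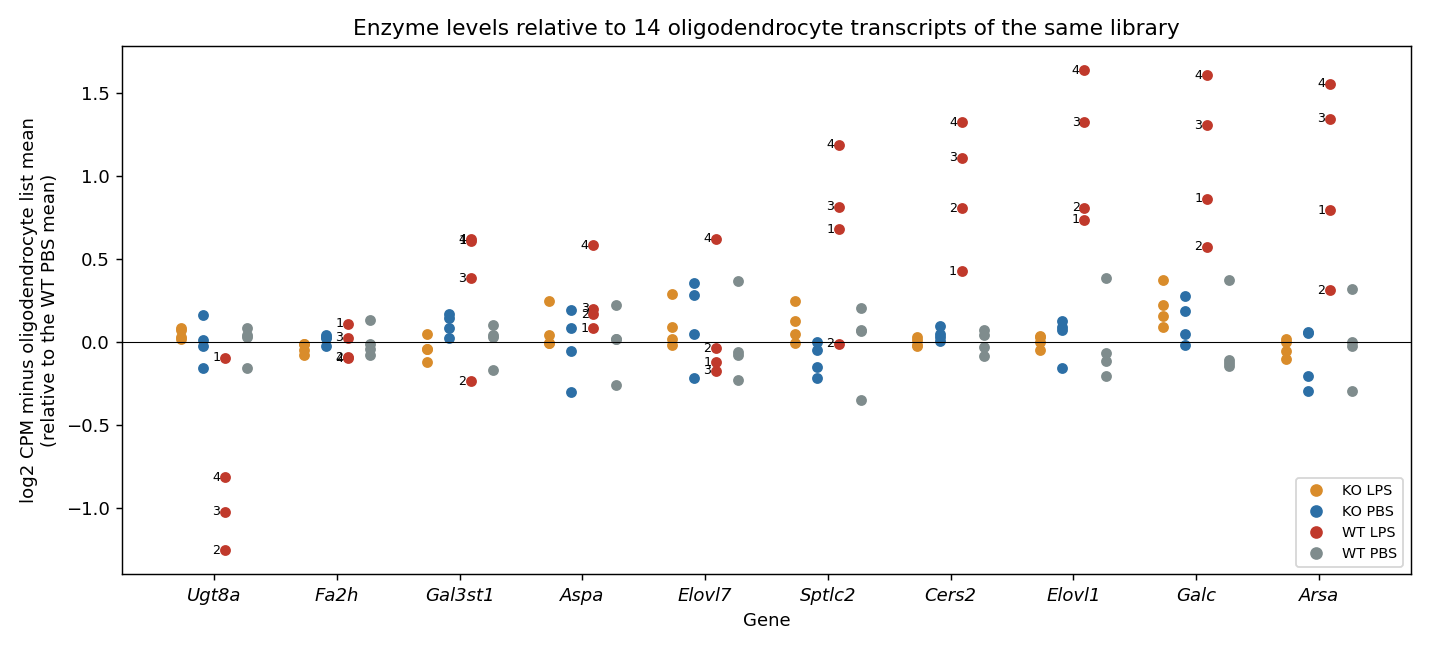
Log2 CPM of each enzyme minus the mean log2 CPM of 14 oligodendrocyte transcripts in the same library, relative to the WT PBS mean, with a point for each of the 16 libraries and WT LPS points numbered by replicate. WT LPS replicates 2, 3 and 4 of Ugt8a lay at -1.25, -1.02 and -0.81, Fa2h stayed between -0.10 and 0.13 in all groups, and Galc lay at 0.57 to 1.61 in WT LPS. The position of Galc mostly restates the fall of the list, since Galc itself had a log2 fold change of 0.04.

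Among the enzymes themselves, Pearson correlations of log2 CPM over the 16 libraries, which share scaling and tissue composition and fall into 4 groups, were highest for Ugt8a with Gal3st1 (0.93; 0.85 with group means subtracted), Ugt8a with Fa2h (0.92; 0.72) and Gal3st1 with Fa2h (0.93). Ugt8a with Galc was at -0.28 and Ugt8a with Arsa at -0.32. With the oligodendrocyte list score, Fa2h had an r of 0.99 (0.97 with group means subtracted), Ugt8a 0.93 (0.66) and Galc -0.13 (0.08). The genes outside the group whose log2 CPM was most like the mean standardised profile of the 10 enzymes over the 16 libraries were Mag (0.957), a myelin adhesion protein, Tmem63a (0.955), Plekhb1 (0.95), Frmd8 (0.949), Trim59 (0.948) and Pla2g16 (0.943). With group means subtracted they were Evi2a (0.932), Plekhb1 (0.928), Rffl (0.92), Mag (0.918), Ttyh2 (0.917) and S1pr5 (0.917), the last a sphingosine-1-phosphate receptor of oligodendrocytes.

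The enzymes were compared with 49 other genes of the same pathways. In WT LPS against WT PBS, 11 of the 49 were lower and none was higher, with a median of -0.06. Most of the calls, 8 of 11, fell among the 14 genes of fatty acid supply and elongation, whose median was -0.22. Scd2, a stearoyl-CoA desaturase abundant in brain, had 1218 to 1440 CPM in WT LPS, against 1654 to 1917 CPM in WT PBS, and its groups did not overlap (log2 fold change -0.44 ± 0.07, edgeR adjusted p = 0.00304). Its relative Scd1 differed by -0.68 ± 0.13 (0.0063), the elongase Elovl6 by -0.59 ± 0.12 (0.0112) and Acly, which makes cytosolic acetyl-CoA, by -0.31 ± 0.07 (0.0117). Outside fatty acid supply, Gltp, a glycolipid transfer protein, was lower by a log2 fold change of -0.56 ± 0.11 (edgeR adjusted p = 0.00641), and Sgms1, which makes sphingomyelin, by -0.37 ± 0.08 (0.0104). Of the ceramide backbone genes 1 of 13 was lower, of other headgroup genes 1 of 6, of sulfate supply genes 0 of 5, of transfer and breakdown genes 1 of 8, and of N-acetylaspartate genes 0 of 3.

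In KO LPS against WT LPS, 9 of the 49 were higher and 1 was lower in KO LPS. Scd2 (0.40 ± 0.07), Gltp (0.55 ± 0.11), Scd1 (0.63 ± 0.13), Acly (0.32 ± 0.07), Elovl6 (0.55 ± 0.12) and Hsd17b12 (0.25 ± 0.06), a reductase of chain elongation, were the 6 of the higher genes with the smallest p. None of the 49 passed between KO LPS and KO PBS or between KO PBS and WT PBS, and 3 passed the interaction, all higher: Scd2 (0.51 ± 0.09), Scd1 (0.84 ± 0.18) and Gltp (0.66 ± 0.15).

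**Figure D4:**
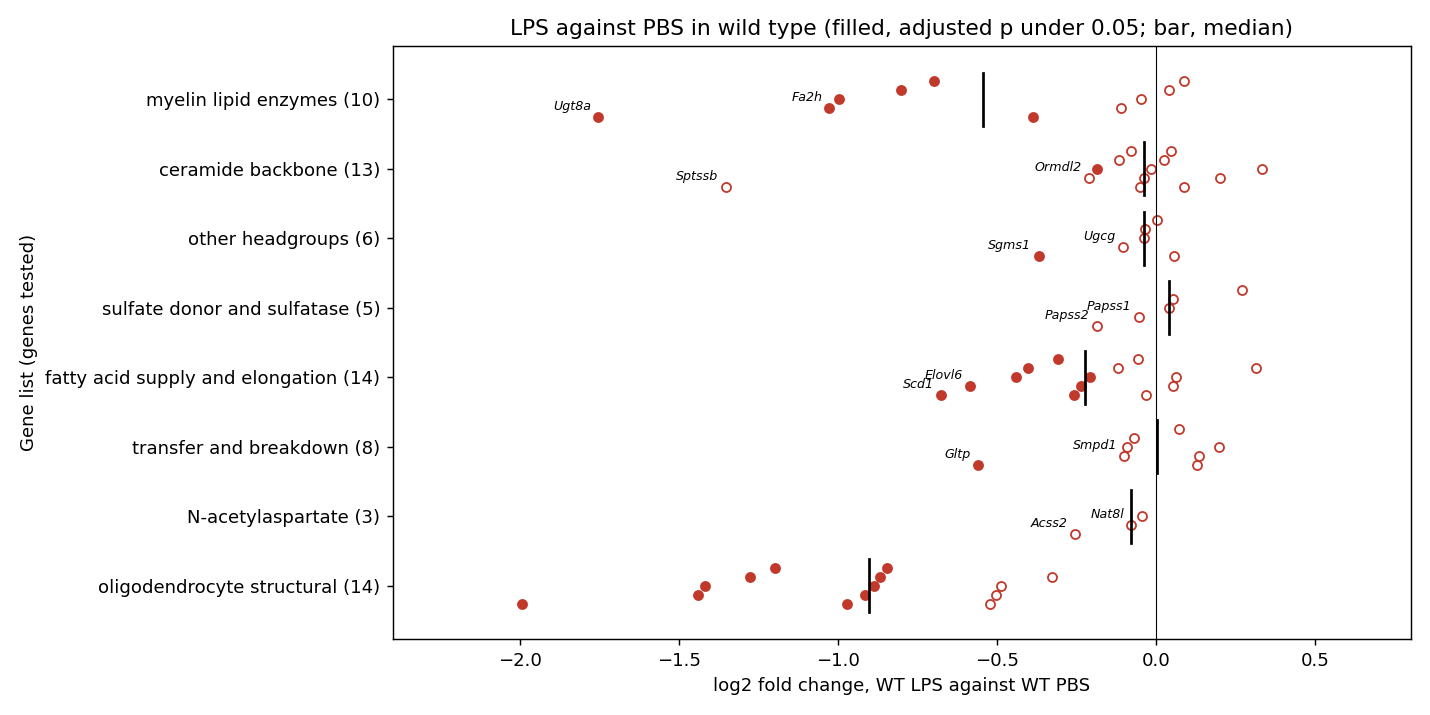
Log2 fold changes in WT LPS against WT PBS of the 10 enzymes, of 6 lists of other lipid genes and of 14 oligodendrocyte structural transcripts, with filled points at an adjusted p under 0.05 (edgeR) and vertical bars at list medians. The medians were -0.54 for the enzymes, -0.22 for fatty acid supply and elongation and -0.90 for the oligodendrocyte transcripts.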

How the data were processed

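The authors deposited a table of estimated counts per gene, given as whole numbers; per the submitters' processing notes the tools were MultiQC 1.13, Salmon 1.9.0, DESeq2 and DESeq, with no role stated. The authors' genome build was not given in the sources used here. Gene names and places were read from GENCODE M21 (GRCm38) (105 identifiers unmatched, 0.0537% of counts), promoter windows from RefSeq. Genes were kept with filterByExpr (16269 of 19449, with 99.97% of counts), library totals were adjusted by TMM, and edgeR's quasi-likelihood model with a mean for each of 4 groups was fitted over all 16 libraries (edgeR 4.0.16, R 4.3.3). P-values were adjusted by Benjamini-Hochberg over all genes, threshold 0.05. The SE is the log2 fold change divided by the root of F. CPM uses TMM-scaled totals, log2 CPM a prior count of 2.

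The enzymes and the lists were chosen with earlier results of these data known. Named genes were all 10 enzymes, of the 49 pathway genes up to 6 per direction and of the oligodendrocyte list up to 4, by smallest p among those that passed; Degs1, Elovl5 and others beyond these are only counted. The precursor, transcription factor, leukocyte, astrocyte, microglial and neighbouring region genes were named after their values were seen, as were Mbp, Mobp, Cldn11 and Tspan2. Alternatives were RLE scaling, no filter, a filter of CPM at least 1 in 4 libraries, a replicate block and list scores as covariates. Further ones were a fit of only the libraries compared, WT PBS replicates 2 and 3 summed, and leaving out each library. DESeq2 1.42.0 and limma-voom (limma 3.58.1) with quality weights were also run. The median squared difference of WT PBS replicates 2 and 3 was 1.84 times that of sampling noise. In the next closest pair of a group it was 4.39 times. The reads carry no stated molecular identifiers. Values of some genes named by the rule are not reported here.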

Additional observations from a re-analysis of the deposited data

Results flagged for a closer look

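In the main fit the LPS effect on Ugt8a differed between genotypes, higher in KO than in WT by 1.73 on the log2 scale, and so did that on Sptlc2, by 0.53 (interaction test of edgeR, adjusted p = 0.0432 and 0.04997). Both calls were fragile, and Lcn2 did not rise in the KO LPS libraries. Each passed in 3 of the 16 fits that left out 1 library. Neither passed with the replicate block, with either list score as covariate or with WT PBS replicates 2 and 3 summed. For Sptlc2 the WT LPS libraries lay below the WT PBS libraries and the KO LPS libraries above the KO PBS libraries, although the difference in the knockout did not pass. A single library stood far from the others of its group: Elovl1 was at 16.8 CPM in the library labelled KO PBS replicate 1 and at 14 to 14.1 CPM in the other 3. This is 1 of 40 combinations of gene and group examined by Dixon's test, where chance gives about 1 in 20. The same library holds the Tspo level that goes against its label; whether these are linked was not tested.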

How the results depend on the processing

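The 6 enzymes lower in WT LPS than in WT PBS stayed at 4 to 6 under 8 of the 10 alternatives and at 5 to 6 when 1 library was left out. The count was 0 with the oligodendrocyte list score as covariate and 0 when only the 8 libraries compared were fitted, where no gene of all tested passed. Between KO LPS and WT LPS the count of 6, all higher in KO LPS, was 0 with the oligodendrocyte score as covariate, 1 with the neighbouring regions score, 3 when only the libraries compared were fitted, and 1 to 7 when 1 library was left out, with at most 6 higher (Elovl1, lower, was the seventh without WT LPS replicate 1). With limma-voom it was 7, with Arsa lower. Between KO PBS and WT PBS the count of 0 became 2 (Arsa and Sptlc2) with limma-voom. The 2 enzymes of the interaction were 1 (Ugt8a) with RLE scaling, 1 without a filter and 1 with the CPM filter. They were 0 with the oligodendrocyte score, 0 with the neighbouring regions score, 0 with WT PBS replicates 2 and 3 summed, 5 with DESeq2, 6 with limma-voom, and 0 to 4 when 1 library was left out. Among the fits that left out 1 library, Ugt8a and Sptlc2 both passed the interaction only without WT PBS replicate 1, WT PBS replicate 4 or WT LPS replicate 1. A fit of the interaction on only the libraries compared was not run, since all groups enter it. Apart from the effect of fewer libraries or added terms in the fit, the cause of these differences was not tested.

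Pairing by replicate number was not assumed. Same-numbered libraries of the WT groups correlated at -0.04 to 0.36 in their deviations from the group means, and those of the KO groups at -0.13 to 0.07. Differently numbered libraries ran from -0.41 to 0.41 in WT and from -0.16 to 0.19 in KO. These few values cannot decide if the numbers mark pairs. With the replicate block the interaction count was 0 (Ugt8a 1.77, edgeR adjusted p = 0.0699), and Cers2 in the interaction was 0.0032. The block left the count between WT LPS and WT PBS at 6.

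Some values changed sign, among them 4 that had passed. With the oligodendrocyte score as covariate, WT LPS against WT PBS was 0.073 for Fa2h (-1.03 without it), 0.066 for Aspa (-0.80 without it) and 0.45 for Cers2. KO LPS against WT LPS was then -0.099 for Fa2h (0.80 without it), -0.039 for Aspa (0.66 without it) and -0.015 for Galc, Ugt8a in KO LPS against KO PBS was 0.041, the interaction of Fa2h was -0.12 (0.90 without it), and KO PBS against WT PBS was 0.049 for Gal3st1, 0.025 for Fa2h and 0.068 for Elovl7. Galc in KO LPS against WT LPS was -0.0012 with RLE scaling, -0.00502 with the CPM filter, -0.0108 with the neighbouring regions score, -0.0035 with only the libraries compared, -0.0029 with the summed PBS library, -0.0019 with DESeq2 and -0.0245 with limma-voom. With the neighbouring regions score, Aspa in KO LPS against KO PBS was -0.0138 and the Arsa interaction -0.014. With limma-voom, KO LPS against KO PBS was -0.036 for Aspa and 0.027 for Arsa, KO PBS against WT PBS was 0.052 for Gal3st1 and 0.089 for Elovl7, and the interaction of Cers2 was 0.0257. With the summed library, Gal3st1 in KO PBS against WT PBS was 0.00296.

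Leaving out 1 library gave these ranges where a sign changed. In KO LPS against KO PBS they were -0.029 to 0.0291 for Arsa, -0.053 to 0.14 for Aspa, -0.18 to 0.0014 for Elovl7, -0.0025 to 0.044 for Galc and -0.069 to 0.083 for Ugt8a. In KO LPS against WT LPS they were -0.18 to 0.10 for Cers2 and -0.0254 to 0.018 for Galc. In KO PBS against WT PBS they were -0.15 to 0.0045 for Cers2, -0.19 to 0.18 for Elovl7, -0.23 to 0.0014 for Fa2h and -0.084 to 0.066 for Gal3st1. In WT LPS against WT PBS Elovl1 ran from -0.0024 to 0.16, and in the interaction Arsa from -0.0013 to 0.10 and Cers2 from -0.11 to 0.17. Counting error alone gives a coefficient of variation of 1.95% to 5.2% in WT PBS and 2.08% to 6.24% in WT LPS. The spread between libraries was under 2 times that for 1 enzyme in WT LPS (Galc) and 2 in WT PBS (Galc and Elovl1), and for 6 in KO LPS and 4 in KO PBS. Intervals cover no label error.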
